A study of Mus musculus with 24 samples.

Results

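The genes described here are the aminoacyl-tRNA synthetases, measured in a mouse cell line with and without a Nat10 alteration before and during block of transcription. Members were chosen by symbol, as every gene named for an amino acid's one-letter code followed by ars, ars1 or ars2, pseudogenes left out. The rule gave 37 of the 55414 genes counted, 20 for the cytosol and 17 for mitochondria. No measured value entered the choice. The older symbols of the name table are used throughout (Aars for Aars1, Mars for Mars1 and so on).

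An aminoacyl-tRNA synthetase joins an amino acid to its tRNA, the step that sets which residue a codon adds to a protein. Cytosolic and mitochondrial translation mostly use separate enzymes from separate nuclear genes, and the mitochondrial set serves only the few proteins of the mitochondrial genome. Gars and Kars each make both forms from a single gene. Mitochondria have no glutamine enzyme of their own and make Gln-tRNA by way of glutamate and the amidotransferase of Qrsl1, Gatb and Gatc. Eprs charges both glutamate and proline, and Farsa and Farsb are the subunits of a single phenylalanine enzyme. Eprs, Iars, Lars, Mars, Qars, Rars, Kars and Dars sit in the multisynthetase complex, held by the scaffolds Aimp1, Aimp2 and Eef1e1. Many cytosolic synthetase genes are known targets of ATF4, the transcription factor of the amino acid response, and Wars is also known as an interferon-induced gene.

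The study profiled mRNA lifetimes in 32D cells, a mouse bone marrow line that depends on interleukin-3, by polyA RNA-seq. The cells were wild type (WT) or 1 of a pair of lines, KO1 and KO2, titled Nat10+/- and given the genotype Nat10 deficiency, where Nat10 is the enzyme that writes N4-acetylcytidine on RNA. All were grown with 10% serum and 10 ng/ml mouse interleukin-3, given 0.05 µg/ml actinomycin D, which binds DNA and blocks transcription, and collected at 0, 3, 6 and 9 h, with 2 libraries in each of the 12 groups. The labels state that all samples received the same amount of ERCC spike-in RNA. Each of KO1 and KO2 is a single line, so a difference between one of them and WT cannot be told apart from a difference between lines. The labels speak of biological replicates but do not say that libraries came from separate cultures, so a p-value below reflects library-to-library spread only, and that spread may be technical. Low doses of actinomycin D are known to act first on RNA polymerase I, and the change of an mRNA's share over the hours is therefore not read here as its decay rate.

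Each library held 15361601 to 17338939 gene counts. Spike-in RNA gave 120 to 257 counts in a WT library and 3742 to 13774 in a library of a clone. Values below are counts scaled to library size (CPM), so each is a share of the mRNA pool, and a difference is a log2 fold change from edgeR's quasi-likelihood test. "Called" means an adjusted p (Benjamini-Hochberg over all 16167 genes tested) under 0.05. Nat10 itself ranged over 111 to 113 CPM in WT at 0 h, 97.7 to 108 in KO1 and 95.1 to 99.2 in KO2, and fell by 0.12 in KO1 (edgeR adjusted p = 0.0486) and by 0.21 in KO2 (edgeR adjusted p = 2.91e-04) on the log2 scale. Which part of the gene was altered is not given in the sources used here, so its mRNA level checks the labels only in part. The cell type label names lymphoblasts, yet 9 lymphoid markers summed to only 4.14 to 35.7 CPM over the libraries, with 3 of the 9 at 0 in all, against 595 to 1358 CPM for 9 markers of myeloid and interleukin-3 dependent progenitors.

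Promoters of the cytosolic members are shown first because ATF4 and its partners bind the letters TGATGNAA, the CEBP-ATF response element, and many of these genes are described as ATF4 targets. Whether the element has a part in any difference below was not tested. A promoter here is the 300 bases from 250 before to 50 after the RefSeq start (GRCm38.p6, first promoter listed for a gene), and 13 cytosolic and 14 mitochondrial members had one that could be used. The element was found on either strand in 5 of 13 cytosolic promoters (38.5%), in 0 of 14 mitochondrial ones and in 4.06% of all 27025 promoters of the table. The stretch from 150 before to 30 after the start is printed 5′ to 3′ on the strand of the gene, with the matching letters in capitals. Aars, the alanine enzyme, lies at chr8:111033692-111033871 (plus strand), Gars, the glycine enzyme, at chr6:55037851-55038030 (plus), Iars, the isoleucine enzyme, at chr13:49681980-49682159 (plus), Tars, the threonine enzyme, at chr15:11399629-11399808 (minus) and Yars, the tyrosine enzyme, at chr4:129189753-129189932 (plus).
Aars: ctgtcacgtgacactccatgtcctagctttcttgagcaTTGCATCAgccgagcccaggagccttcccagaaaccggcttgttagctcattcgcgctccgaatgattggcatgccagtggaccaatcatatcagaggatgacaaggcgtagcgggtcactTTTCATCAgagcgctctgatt
Gars: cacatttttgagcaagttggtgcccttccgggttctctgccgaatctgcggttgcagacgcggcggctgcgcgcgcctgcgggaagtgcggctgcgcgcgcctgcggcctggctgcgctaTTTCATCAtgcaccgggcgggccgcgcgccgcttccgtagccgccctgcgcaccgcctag
Iars: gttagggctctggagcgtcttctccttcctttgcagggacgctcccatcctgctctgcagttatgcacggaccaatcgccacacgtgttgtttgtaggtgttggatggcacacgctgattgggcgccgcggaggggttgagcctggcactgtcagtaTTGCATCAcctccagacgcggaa
Tars: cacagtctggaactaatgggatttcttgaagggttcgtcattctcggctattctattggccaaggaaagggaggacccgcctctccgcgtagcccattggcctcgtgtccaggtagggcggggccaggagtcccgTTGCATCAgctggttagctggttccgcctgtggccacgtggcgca
Yars: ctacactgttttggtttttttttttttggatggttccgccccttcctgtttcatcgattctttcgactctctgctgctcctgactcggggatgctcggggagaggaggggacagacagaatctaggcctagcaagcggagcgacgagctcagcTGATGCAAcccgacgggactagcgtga
Aars carries the element at 2 places, 1 of them 112 bases before the start. In Yars the match reads along the strand of the gene and in the other 4 along the opposite strand. The E-box CACGTG, bound by Myc and its relatives, was in 4 of 13 cytosolic promoters (Aars, Farsb, Iars and Tars, 30.8%), in 1 of 14 mitochondrial ones (Ears2, 7.14%) and in 7.24% of all promoters. The cyclic AMP element TGACGTCA was in 0 of 13, 0 of 14 and 1.88%. The interferon-stimulated response element was in 1 of 13 (Qars), 0 of 14 and 3.49%. Wars, Vars, Cars, Rars, Nars, Lars and Hars are not among the 13 cytosolic promoters, so no element was looked for in them. No match of one element overlapped a match of another in these promoters, and a match is a description of letters, not a bound site.

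Before drug, cytosolic synthetase mRNAs stood far above their mitochondrial partners. Per kilobase of exon, the cytosolic genes had a median of 57.0 CPM per kb in WT (range 14.7 to 177.0) and the mitochondrial genes a median of 6.66 (range 2.65 to 26.7). In each of 16 pairs that charge the same amino acid the cytosolic gene was the higher, by a median ratio of 8.42. Fars2 enters these pairs with both Farsa and Farsb. The gap was widest for asparagine, with Nars at 177 ± 3.34 (SD, n = 2) CPM per kb and Nars2 at 3.87 ± 0.164, a ratio of 45.7. It was narrowest for arginine, with Rars at 60.0 ± 1.86 and Rars2 at 26.7 ± 0.872, a ratio of 2.25. In WT, Rars2 was the mitochondrial gene with the most mRNA per length and lay above Qars (21.9 ± 0.346) and Cars (14.7 ± 0.650), the lowest of the cytosolic set, which charge glutamine and cysteine. Behind Nars in the WT order came Wars (139 ± 1.77), Sars (125 ± 0.701), Gars (108 ± 1.45) and Vars (108 ± 2.20), for tryptophan, serine, glycine and valine. Of the 36 neighbouring pairs in that order, 24 were apart by more than the sum of their SDs and 12 were not, Gars and Vars among the latter. All 37 members passed the filter on low counts, and the lowest count of any member in a library was 7.

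**Figure D1:**
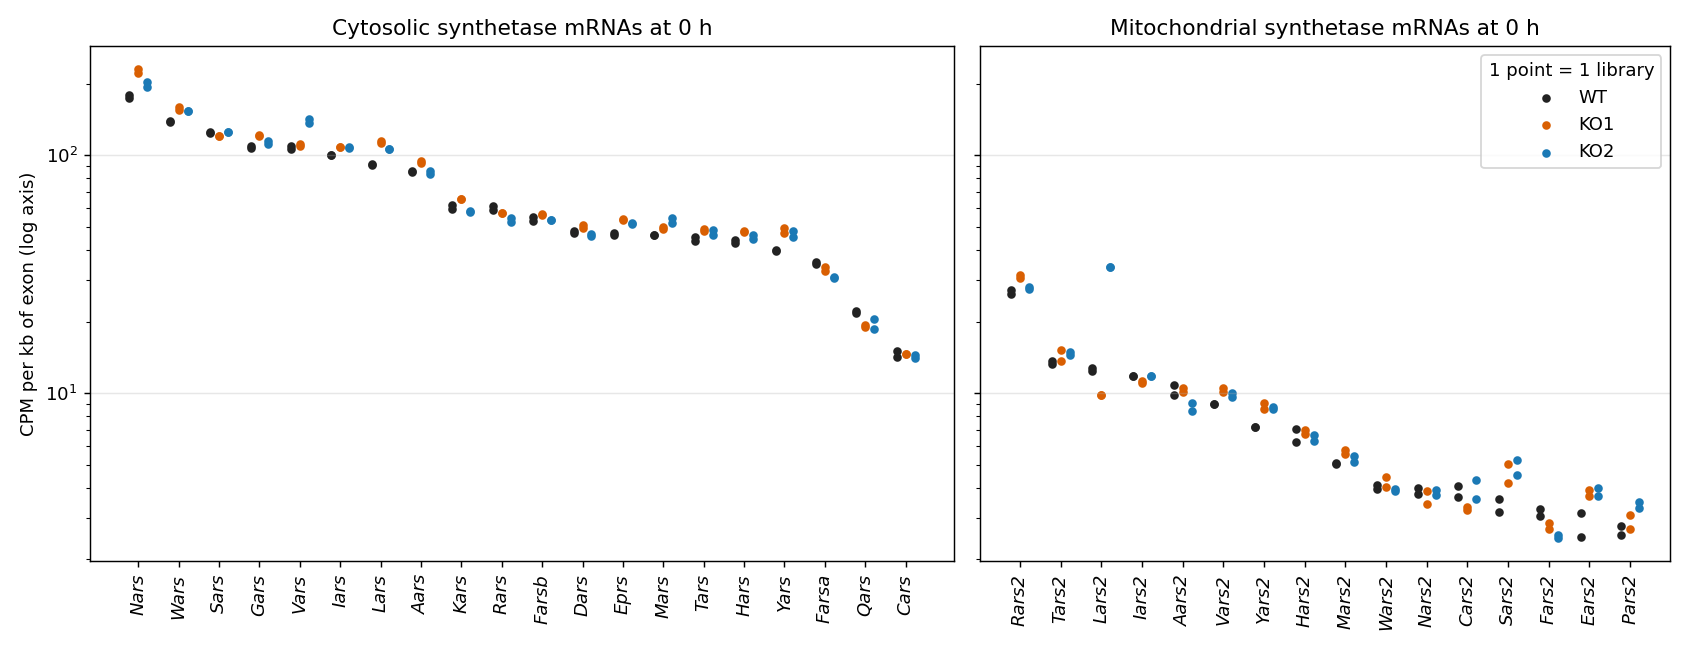
Level of the synthetase mRNAs shown at 0 h in CPM per kilobase of exon (log axis), 1 point for each library, WT in black, KO1 in orange and KO2 in blue, cytosolic members on the left and mitochondrial members on the right, in order of the WT mean. The cytosolic genes run from 177.0 down to 14.7 in WT, and in WT only Rars2 of the mitochondrial genes reaches into that range.

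At 0 h, KO1 held slightly more of most cytosolic synthetase mRNAs than WT. In this comparison of KO1 with WT, 12 of 20 cytosolic members were higher, 1 was lower and 7 were not called, while 6 of 17 mitochondrial members were higher, 3 lower and 8 not called. Over all genes tested, 27.3% were called, 15% higher and 12.3% lower. The median difference was 0.108 for cytosolic and 0.0705 for mitochondrial members on the log2 scale, and that of all genes was 0.00960. No member reached a change of 1.5-fold, as 4.87% of all genes did. KO2 against WT, which shares the same WT libraries, gave 9 cytosolic members higher and 3 lower, and 5 mitochondrial members higher and 1 lower, where 29.4% of all genes were called, 15.1% higher and 14.3% lower. The medians in KO2 were 0.0653 for cytosolic and 0.0603 for mitochondrial members. In these bulk samples fewer cells of a kind and less RNA in each cell cannot be told apart. Lars2 alone passed 1.5-fold in KO2, where 6.56% of all genes passed.

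Most cytosolic members called higher were among the 12 commonly described as ATF4 targets. In KO1, 10 of these 12 were higher and 0 lower (median 0.153), and in KO2 8 were higher and 0 lower (median 0.122). Among the other 8 cytosolic members, 2 were higher and 1 lower in KO1, and 1 was higher and 3 lower in KO2. Of all genes, 15% were higher and 12.3% lower in KO1, and 15.1% and 14.3% in KO2. The difference between these lists was not tested. Of 21 amino acid response genes tested, 14 were higher and 1 lower in KO1, and 13 higher and 0 lower in KO2. Among them Atf5, a transcription factor of this response, rose by 0.71 in KO1 and 0.47 in KO2, and Ddit3, the stress factor CHOP, rose by 0.52 and 0.16. Cebpb, which pairs with ATF4, rose by 0.34 and 0.97, and Sesn2, a sensor of leucine, by 0.39 and 0.49. Asns, asparagine synthetase, named here after its values were seen, was not called in either clone (0.06 and 0.06). Pycr1, an enzyme of proline synthesis, was the gene of this list that fell in KO1 (-0.32).

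Nars, the asparagine enzyme and the most abundant member per length, stood at 761 and 781 CPM in WT, 1000.4 and 966 in KO1 and 885 and 846 in KO2 at 0 h. The libraries of the 3 lines did not overlap, with KO1 highest and WT lowest. The difference from WT was 0.35 (SE 0.0223, adjusted p = 3.32e-26) in KO1 and 0.17 (SE 0.0224, adjusted p = 7.72e-10) in KO2. Lars, the leucine enzyme, stood at 495 and 489 CPM in WT, 606 and 619 in KO1 and 569 and 568 in KO2, again with no overlap and KO1 highest, a difference of 0.32 (SE 0.0248, adjusted p = 1.30e-20) in KO1 and 0.21 (SE 0.0249, adjusted p = 9.89e-12) in KO2. Yars, one of the promoters printed above, stood at 235 and 238 CPM in WT, 279 and 293 in KO1 and 268 and 284 in KO2, both clones above WT, with differences of 0.28 and 0.23, both called. Eprs, which charges glutamate and proline, stood at 852 and 839 CPM in WT, 968 and 979 in KO1 and 935 and 944 in KO2. Both clones were again above both WT libraries, by 0.20 and 0.15, both called.

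Aars stood at 799 and 789 CPM in WT, 864 and 882 in KO1 and 776 and 796 in KO2. KO1 lay above both WT libraries, and KO2 overlapped WT. The call was made in KO1 (0.14, SE 0.0214, adjusted p = 1.20e-07) and not in KO2 (-0.02, adjusted p = 0.657). Gars stood at 333 and 339.8 CPM in WT, 379.8 and 377 in KO1 and 358 and 348 in KO2, with both clones above WT, and was called in KO1 (0.17, SE 0.0296, adjusted p = 1.58e-06) but not in KO2 (0.07, adjusted p = 0.0724). Wars, the tryptophan enzyme, stood at 474 and 483 CPM in WT, 532 and 551 in KO1 and 527 and 527 in KO2, with both clones above WT and calls in KO1 (0.18) and KO2 (0.14). Qars was the cytosolic member that fell in both, by 0.19 in KO1 and 0.16 in KO2 on the log2 scale, from 146 and 143 CPM in WT to 128 and 124 and 122 and 135. In KO2, Farsa and Rars fell as well. Farsa stood at 162 and 159 CPM in WT, 149 and 153 in KO1 and 140.4 and 139 in KO2, and only KO2 was called lower (-0.20, SE 0.0362, adjusted p = 2.96e-06). Rars, for arginine, stood at 198 and 189.6 CPM in WT, 184 and 184 in KO1 and 169 and 175 in KO2 and gave -0.17 (SE 0.0364, adjusted p = 7.96e-05) in KO2, its libraries all below those of WT.

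Among mitochondrial members, Sars2 and Ears2 rose in both clones. Sars2, the mitochondrial serine enzyme, stood at 10.5 and 11.9 CPM in WT, 16.7 and 13.9 in KO1 and 15.1 and 17.4 in KO2. Both clones were above both WT libraries, with differences of 0.45 (SE 0.127, adjusted p = 0.00358) in KO1 and 0.54 (SE 0.125, adjusted p = 2.86e-04) in KO2. Ears2, which charges glutamate in mitochondria and feeds the glutamine route, stood at 12.8 and 16.2 CPM in WT, 20.1 and 19.0 in KO1 and 19.0 and 20.6 in KO2, again with the clones above WT, by 0.43 (SE 0.111, adjusted p = 0.00147) and 0.45 (SE 0.111, adjusted p = 6.75e-04). These rest on few counts, and some calls rest on single libraries. Without WT replicate 1, Ears2 was no longer called in KO1 (0.27, adjusted p = 0.142) or in KO2 (0.29, adjusted p = 0.105), and Sars2 was not called in KO1 (edgeR adjusted p = 0.0818); without KO1 replicate 1 it gave 0.31 (adjusted p = 0.158).

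Cars2, for cysteine in mitochondria, was lower in KO1. It stood at 26.4 and 29.4 CPM in WT, 23.5 and 24.02 in KO1 and 31.2 and 25.98 in KO2 and gave -0.23 (SE 0.0837, adjusted p = 0.0281) in KO1. The KO1 libraries lay below the WT libraries, while the KO2 libraries spanned the WT values. Without KO1 replicate 1 or 2, or WT replicate 2, it was not called, with adjusted p from 0.0976 to 0.368, nor was it with no filter on low counts (adjusted p = 0.0680). Aars2, the mitochondrial alanine enzyme, stood at 46.7 and 51.7 CPM in WT, 50.1 and 48.2 in KO1 and 40.2 and 43.4 in KO2 and was called lower in KO2 alone (-0.23, SE 0.0716, adjusted p = 0.00719). That call was lost without WT replicate 2 (adjusted p = 0.222) and without KO2 replicate 1 (adjusted p = 0.144).

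**Figure D2:**
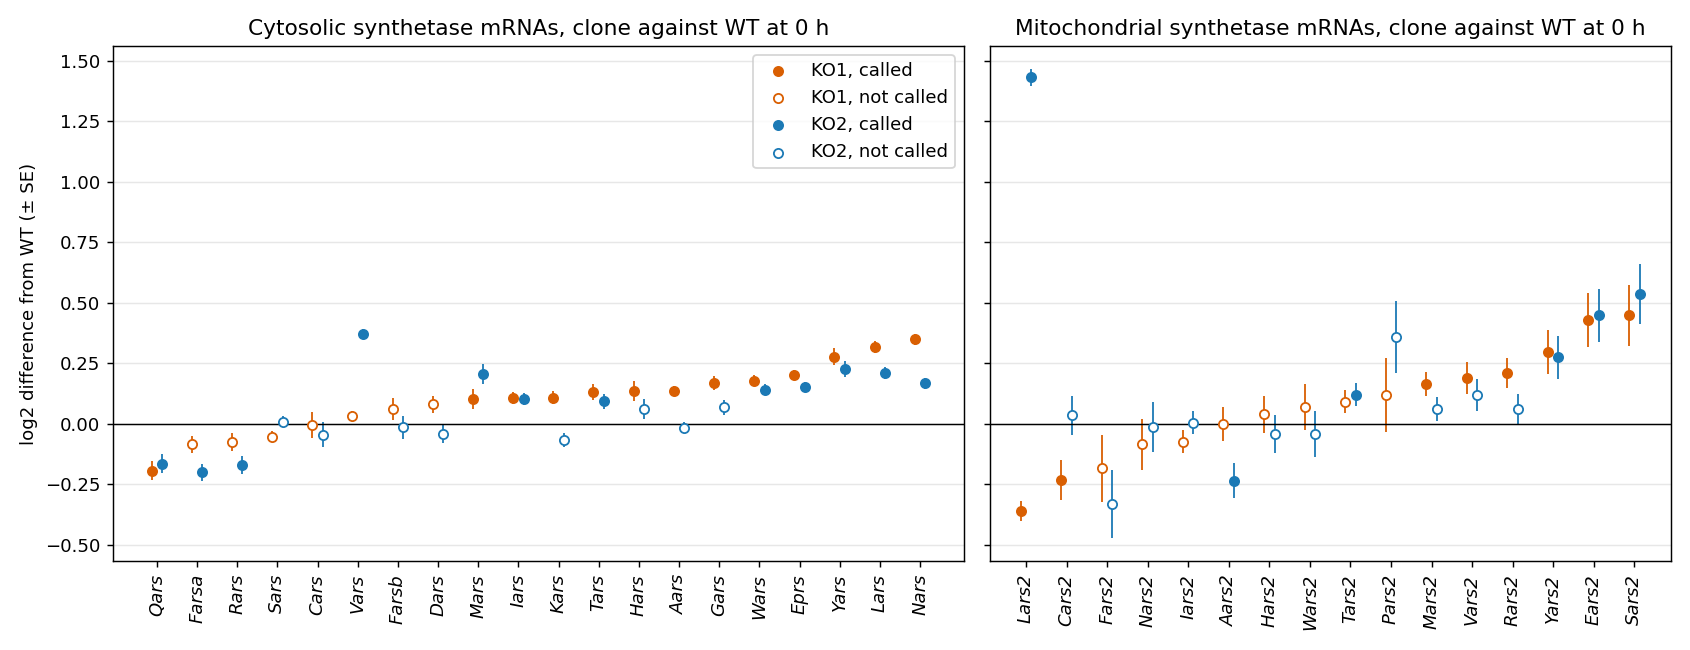
Difference of each clone from WT at 0 h for the synthetase genes shown on the log2 scale, with its standard error from edgeR (n = 2 libraries a group), KO1 in orange and KO2 in blue, filled where called. Most cytosolic points of KO1 lie a little above 0, Nars highest at 0.35, and Lars2 of KO2 stands alone at 1.43.

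Between the clones themselves, KO2 held less of several cytosolic mRNAs than KO1. In KO2 against KO1 at 0 h, 1 of 20 cytosolic members was higher and 7 were lower, and 2 of 17 mitochondrial members were higher and 1 lower, where 16.8% of all genes were called, 7.29% higher and 9.55% lower. Vars, the valine enzyme, was the one that rose, at 614 and 596 CPM in WT, 624 and 615 in KO1 and 769 and 795 in KO2. KO1 lay just above WT and KO2 stood well above both, by 0.34 (SE 0.0211, adjusted p = 6.14e-27) against KO1. Kars, the lysine enzyme of both compartments, stood at 276 and 266 CPM in WT, 292 and 292 in KO1 and 259 and 259.6 in KO2, a difference of -0.17 (SE 0.0280, adjusted p = 3.38e-07) between KO2 and KO1, and against WT only KO1 was called (0.11). Nars was -0.18 in KO2 against KO1 (called), and Aars2 was -0.23 and Cars2 0.27 (both called, and both lost without KO1 replicate 1, at adjusted p = 0.132 and 0.113, and without KO2 replicate 1, at 0.189 and 0.517). Cars2 was also lost without KO1 replicate 2 (adjusted p = 0.0722).

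When the 2 libraries of each group were summed and the lines compared over all 4 times, with time in the model, fewer members were called. The spread in that fit is the variation of line differences over the times, not that between replicates. KO1 had 7 calls against WT (Eprs, Gars, Iars, Lars, Aars2 and Rars2 higher, Sars lower), KO2 had 5 (Iars, Lars, Pars2 and Tars2 higher, Fars2 lower) and KO2 against KO1 had 1 (Vars higher). In the same fit 18.3% of all genes were called for KO1 against WT, 21.5% for KO2 against WT and 2.71% for KO2 against KO1. Lars2 in KO2 gave 0.30 on these sums (edgeR adjusted p = 0.617), and Nars gave 0.16 in KO1 (edgeR adjusted p = 0.0513). A list of 5 macrophage markers summed to 110.5 to 110.6 CPM in WT at 0 h, 54.1 to 57.58 in KO1 and 38.32 to 38.34 in KO2, and 3 of the 4 that were tested (Adgre1, Cd68 and Lyz2) were lower in each clone. The remaining tested marker was called in neither clone, with a difference of 0.40 in KO1 and a negative one in KO2. Over all times the sum of the 5 macrophage markers ranged over 111 to 292 CPM in WT, 54.1 to 268 in KO1 and 38.3 to 221 in KO2. The 6 stromal markers summed to 4.55 to 6.87 CPM in WT at 0 h, 0.133 to 0.439 in KO1 and 0.125 to 0.125 in KO2, with all 3 tested lower in each clone. All 3 were also lower in WT at 3 h than at 0 h. Across the 4 times their list summed to 0.342 to 6.87 CPM in WT, 0.133 to 0.991 in KO1 and 0.125 to 1.04 in KO2. The 9 markers of myeloid progenitors summed to 1340.2 to 1358, 1257 to 1262 and 1204 to 1205 CPM, with 3 of 8 tested lower in KO1 and 5 in KO2. For mast cells 1 of 3 tested was lower in each clone, and for lymphoid cells 0 of 3 in KO1 and 1 in KO2. Of all genes at 0 h, 12.3% were lower in KO1 and 14.3% in KO2. The part of these markers in the synthetase differences was not tested.

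During actinomycin D the cytosolic set lost most of its share of mRNA, while the sum over the mitochondrial set changed little. In WT the 20 cytosolic members summed to 7470.2 ± 34.7 CPM (SD, n = 2) at 0 h and 2406 ± 25.7 at 9 h. The 16 mitochondrial members other than Lars2, which is described apart below, summed to 655 ± 11.4 and 636 ± 9.21. The level mitochondrial sum holds opposite courses, since Mars2 alone went from 57.2 ± 0.612 to 259 ± 2.85 CPM in WT. The ratio of these sums went from 11.4 to 3.78 in WT, from 12.1 to 3.96 in KO1 and from 11.9 to 3.65 in KO2. The median share left at 9 h, relative to the same line at 0 h, was 33.4% for cytosolic members in WT, 31.3% in KO1 and 30.4% in KO2. For mitochondrial members it was 59.8%, 59.5% and 55.8%. In 11 of the 16 WT pairs, with Fars2 again paired with both Farsa and Farsb, less was left of the cytosolic mRNA than of its mitochondrial partner. These sums follow the few most abundant genes, and no test was made on them.

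**Figure D3:**
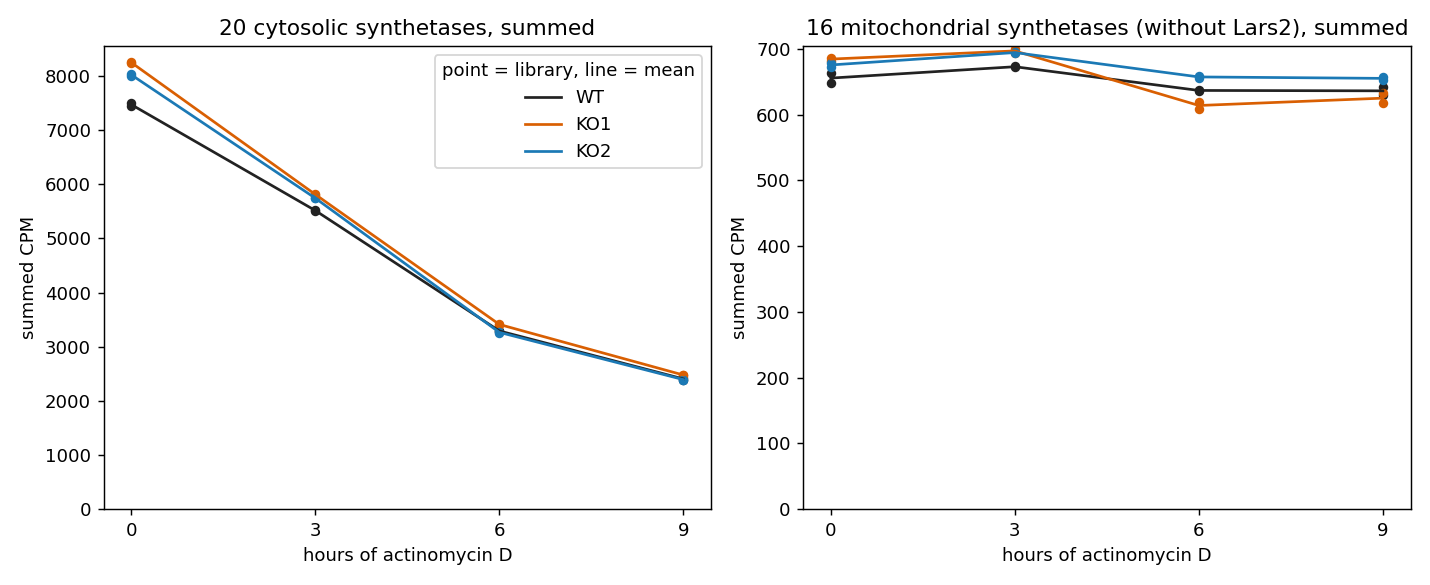
Summed CPM of the 20 cytosolic synthetases (left) and of 16 mitochondrial synthetases without Lars2 (right) against hours of actinomycin D, 1 point for each library and lines through the means, WT in black, KO1 in orange and KO2 in blue. The cytosolic sum of WT goes from 7470.2 to 2406 and the mitochondrial sum from 655 to 636.

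By 9 h in WT, 18 of 20 cytosolic members were lower, 1 was higher and 1 was not called, with 16 lower by at least 1.5-fold (median -1.58). Of 17 mitochondrial members 12 were lower and 5 higher, 10 and 3 of them by 1.5-fold (median -0.74). All genes gave a median of 0.125, with 81.7% called, 43.2% higher and 38.5% lower, and 30.1% lower and 35% higher by 1.5-fold. In KO1, 18 cytosolic members were lower and 1 higher, and 13 mitochondrial members lower and 3 higher, against 80.5% of all genes called, 38.3% lower and 42.2% higher. In KO2 the counts were 18 and 1 for cytosolic and 14 and 3 for mitochondrial members, against 80.8% of all genes called, 38.8% lower and 42% higher.

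The largest falls were in Fars2, Farsb, Eprs and Iars. Fars2, the mitochondrial phenylalanine enzyme, whose gene spans 608860 bases at chr13:36301395-36910254 (GRCm39), in WT stood at 18.6 and 17.5 CPM at 0 h, 7.66 and 6.22 at 3 h, 1.79 and 1.89 at 6 h and 1.46 and 0.755 at 9 h. Both 9 h libraries were below every earlier one, a change of -4.02 (SE 0.214, adjusted p = 1.12e-33) that rests on few counts. Farsb, a subunit of the cytosolic phenylalanine enzyme, stood at 138 and 145 CPM at 0 h, 86.6 and 82.8 at 3 h, 23.7 and 20.9 at 6 h and 12.4 and 10.2 at 9 h, a change of -3.65 (SE 0.0689, adjusted p = 1.02e-72). Its partner subunit Farsa behaved otherwise, at 162 and 159 CPM at 0 h, 189 and 192 at 3 h, 123 and 122 at 6 h and 109 and 107 at 9 h, above its starting level at 3 h and -0.57 at 9 h (called). Eprs (chr1:185095241-185160557) stood at 852 and 839 CPM at 0 h, 514 and 505 at 3 h, 181 and 173 at 6 h and 70.3 and 70.9 at 9 h, lower at each step, a change of -3.58 (SE 0.0295, adjusted p = 4.12e-106) at 9 h. Iars stood at 531 and 530.1 CPM at 0 h, 264 and 255 at 3 h, 75.6 and 82.4 at 6 h and 50.1 and 48.8 at 9 h, most of it lost by 6 h (-3.42, SE 0.0362, adjusted p = 6.70e-96 at 9 h). The clones gave like values at 9 h, with -4.24 and -4.43 for Fars2, -3.77 and -3.82 for Farsb, -3.66 and -3.73 for Eprs, and -3.21 and -3.35 for Iars in KO1 and KO2.

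Mars2, Hars2 and Cars2 gained share instead. Mars2 (chr1:55276336-55287629), the mitochondrial methionine enzyme, whose annotated exons cover its whole span, in WT stood at 56.8 and 57.6 CPM at 0 h, 192 and 192 at 3 h, 232 and 232 at 6 h and 261 and 257 at 9 h. Every later library exceeded both at 0 h, and the change was 2.18 (SE 0.0381, adjusted p = 9.35e-76) in WT, 1.83 in KO1 and 2.04 in KO2. Hars2, for histidine, stood at 30.2 and 26.8 CPM at 0 h, 48.6 and 54.9 at 3 h, 52.0 and 56.7 at 6 h and 57.3 and 60.7 at 9 h, a change of 1.05 (SE 0.0679, adjusted p = 1.53e-27). Cars2 stood at 26.4 and 29.4 CPM at 0 h, 46.9 and 46.0 at 3 h, 53.6 and 54.9 at 6 h and 55.9 and 55.4 at 9 h, a change of 0.997 (SE 0.0709, adjusted p = 9.55e-25). With spike-in totals as the scale, on which the median of all genes in WT at 9 h was -0.6995, Mars2 remained called higher (1.35), and Hars2 (0.23) and Cars2 (0.17) were no longer called. Hars2 shares 195 exon bases with Hars, and Cars2 shares 422 with Naxd, on the opposite strand, and counting took no account of strand.

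**Figure D4:**
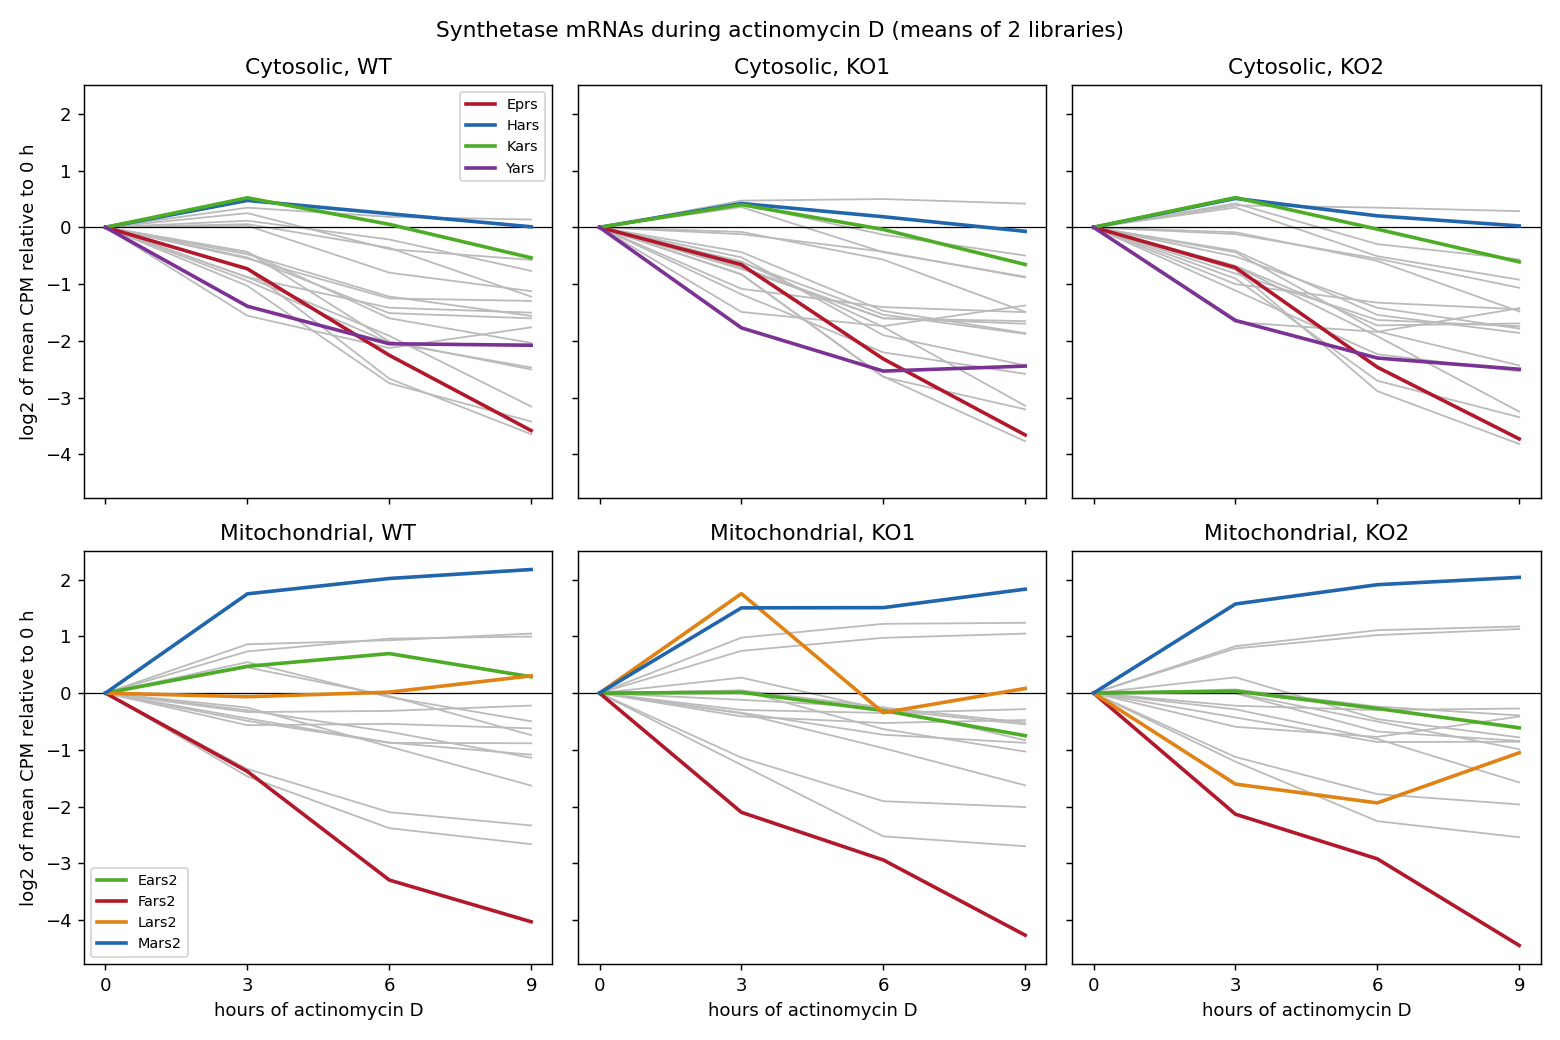
Level of the synthetase mRNAs shown relative to 0 h of the same line (log2 of the ratio of mean CPM, n = 2 libraries), cytosolic members above and mitochondrial members below, WT, KO1 and KO2 from left to right, with named members in colour and the rest in grey. Eprs and Fars2 fall at every step, Mars2 climbs to 2.18 in WT by 9 h, and Lars2 takes a different course in each line.

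At 3 h members had moved both ways. In WT at 3 h, 13 cytosolic members were lower and 6 higher, and 10 mitochondrial members lower and 6 higher, where 72.2% of all genes were called, 33.5% lower and 38.6% higher. In KO1 the counts were 15 and 5 cytosolic and 8 and 5 mitochondrial (all genes 71.3% called, 33.4% lower and 37.9% higher). In KO2 they were 15 and 5 cytosolic and 9 and 4 mitochondrial (all genes 70.9% called, 33.3% lower and 37.6% higher). Cars and Yars fell most among the cytosolic members of WT, by 1.56 and 1.39. Yars then levelled off, with 24.1% of its starting level left at 6 h and 23.7% at 9 h. Kars, Hars, Qars and Farsa rose at 3 h, by 0.52, 0.47, 0.35 and 0.25 in WT, and rose in both clones too. At 9 h Hars was back at its start (108 and 104 CPM at 0 h and 109 and 104.6 at 9 h, not called) and Qars was the one cytosolic member still higher (0.14). The highest mean of a WT time course was at 0 h for 13 of 20 cytosolic members and at 3 h for 7. On spike-in totals 2 members were called higher and 27 lower in WT at 3 h, 5 and 22 in KO1 and 1 and 31 in KO2. In WT at 9 h 1 was higher and 34 lower. Of all genes, that scale called 63.6% in WT, 61.6% in KO1 and 65.7% in KO2 at 3 h, and 77.0% in WT at 9 h. The medians of all genes were -0.365, -0.0492, -0.545 and -0.6995 in the same order.

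Wars, Nars, Aars and Gars all declined to 9 h. Wars in WT stood at 474 and 483 CPM at 0 h, 494 and 499.7 at 3 h, 374 and 371 at 6 h and 206 and 204 at 9 h, with a small rise at 3 h (0.06, SE 0.0234, adjusted p = 0.0286) that was not called without WT replicate 1 at 0 h (adjusted p = 0.166) or replicate 2 at 3 h (adjusted p = 0.1003) and that changed sign with library totals as the scale and was not called with DESeq2. Nars in WT stood at 761 and 781 CPM at 0 h, 552 and 557 at 3 h, 336 and 326 at 6 h and 262 and 260.2 at 9 h, Aars at 799 and 789 CPM at 0 h, 434 and 429 at 3 h, 299 and 296 at 6 h and 285 and 275 at 9 h, and Gars at 333 and 339.8 CPM at 0 h, 248 and 248 at 3 h, 109.9 and 112 at 6 h and 85.5 and 78.4 at 9 h. Their changes at 9 h were -1.22, -1.56, -1.50 and -2.04, all called. The largest step of Aars came by 3 h and that of Gars between 3 and 6 h.

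Members of the multisynthetase complex did not move as a block. At 9 h in WT, where 43.2% of all genes were higher and 38.5% lower, 7 of 8 were lower and 1 higher (median -1.90), against 11 lower of the 12 cytosolic members outside it (median -1.58). Within the complex, Eprs, Iars, Lars and Dars changed by -3.58, -3.42, -3.16 and -2.51, while Kars changed by -0.54 and Qars by 0.14. Of 8 scaffolds and synthetase-like proteins, 3 were higher and 3 lower, near the shares of all genes, with Eef1e1 at -1.27 and Tarsl2, a threonine enzyme paralog, at 0.94. Of the 4 mitochondrial charging helpers, Gatc was higher (0.97) and Gatb lower (-0.74), although both belong to the same amidotransferase. Of 6 elongation factors, 5 were higher and 1 lower in WT. The counts were 4 and 2 in KO1 and 2 and 1 in KO2, a contrast between lines that was not tested. Of all genes, 42.2% were higher and 38.3% lower in KO1, and 42% and 38.8% in KO2. In WT, Eef1b2 stood at 0.89, Eef1a1 at 0.38 and the mitochondrial factor Tufm at -0.40. The 12 cytosolic members of the ATF4 list were all lower at 9 h in WT (median -1.90), as were 19 of 21 amino acid response genes (median -1.09).

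Members from longer genes tended to lose more of their share. Across the 37 members, the change at 9 h in WT went with the log10 of the gene's span at Pearson's r = -0.579 and Spearman's rho = -0.598, and with the log10 of its exon length at r = 0.091 and rho = 0.071. These are descriptions across genes of the same libraries, and genes are not independent replicates. Single members depart from this relation. Lars2 spans 95740 bases and had 123% left at 9 h in WT, Wars2 spans 98119 and had 45.4%, and Pars2, with the shortest span (4214), had 65.0%. Fars2, with the widest span, fell furthest, while Mars2, which gained most, spans 11294.

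Cytosolic members more often than mitochondrial ones were called for a different course in the clones, mostly by small amounts. This contrast of counts was not itself tested. The cytosolic genes also had more mRNA, with a WT median at 0 h of 57.0 CPM per kb against 6.66. Smaller differences can be called at higher counts, so the counts of the sets are not on equal terms. From 0 to 9 h, the change in KO1 exceeded that of WT for 5 cytosolic and 2 mitochondrial members and fell short of it for 7 and 3, where 27.1% of all genes were called, 14.7% higher and 12.5% lower. In KO2 the counts were 4 and 2 higher, 6 and 2 lower, with 25.9% of all genes called, 13.5% higher and 12.4% lower. From 0 to 3 h they were 4 and 3 higher, 9 and 3 lower in KO1 (all genes 25.8%, 13.1% higher and 12.7% lower), and 4 and 1 higher, 7 and 5 lower in KO2 (all genes 24.7%, 13.3% higher and 11.4% lower). The balance of higher and lower calls depended on the scale. To 3 h in KO1, over all members, 7 were higher and 12 lower, against 12 higher and 7 lower with library totals and 12 higher and 0 lower with spike-in totals. To 3 h in KO2, 5 were higher and 12 lower, against 9 higher and 6 lower with library totals and 0 higher and 2 lower with spike-in totals. To 9 h the split went from 7 higher and 10 lower to 9 higher and 7 lower with library totals in KO1, and from 6 higher and 8 lower to 9 higher and 7 lower in KO2. With spike-in totals it was 35 higher and 0 lower in KO1 and 0 higher and 9 lower in KO2. Of all genes, spike-in totals called 20.5% in KO1 and 5.17% in KO2 to 3 h, and 65.2% and 16% to 9 h. Both clones are compared with the same WT libraries. The largest differences to 9 h were those of Ears2 and Aars2 in KO1 and of Lars2, Ears2 and Aars2 in KO2, all mitochondrial.

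As a share of the mRNA pool, Ears2 rose slightly in WT to 9 h and fell in the clones. In WT it stood at 12.8 and 16.2 CPM at 0 h, 19.8 and 20.5 at 3 h, 25.2 and 21.9 at 6 h and 19.2 and 16.3 at 9 h, highest at 6 h. In KO1 it stood at 20.1 and 19.0 CPM at 0 h, 18.5 and 20.9 at 3 h, 15.1 and 16.5 at 6 h and 11.4 and 11.9 at 9 h, and in KO2 at 19.0 and 20.6 CPM at 0 h, 19.1 and 21.4 at 3 h, 16.2 and 16.6 at 6 h and 13.1 and 12.9 at 9 h, lowest at 9 h in both. The 9 h libraries of both clones lay below those of WT, although the 0 h libraries lay above them. The change was 0.29 in WT, -0.75 in KO1 and -0.61 in KO2 (all called), and the difference of change from WT was -1.04 (SE 0.160, adjusted p = 8.32e-08) for KO1 and -0.90 (SE 0.157, adjusted p = 1.94e-06) for KO2. Ears2 (chr7:121636436-121666486) shares 89 exon bases with Ubfd1 on the opposite strand. Ears2 was no longer called for KO1 on the spike-in scale (-0.11). On that scale the 1 member called higher in WT at 9 h was Mars2, so no rise of Ears2 in WT was called. The WT libraries also lay close, at 16.2 CPM in one of 0 h and 16.3 in one of 9 h.

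Aars2 lost less of its share in the clones. It lies at chr17:45817767-45831769 and encodes the mitochondrial alanine enzyme. Aars2 in WT stood at 46.7 and 51.7 CPM at 0 h, 37.4 and 34.8 at 3 h, 28.2 and 25.5 at 6 h and 21.3 and 25.1 at 9 h, in KO1 at 50.1 and 48.2 CPM at 0 h, 45.1 and 45.5 at 3 h, 42.1 and 40.3 at 6 h and 31.9 and 36.7 at 9 h and in KO2 at 40.2 and 43.4 CPM at 0 h, 44.3 and 43.2 at 3 h, 35.7 and 35.2 at 6 h and 31.1 and 32.5 at 9 h. From 3 h on, every library of both clones was above every WT library of the same hour. The difference of change to 9 h was 0.57 (SE 0.108, adjusted p = 1.19e-05) for KO1 and 0.69 (SE 0.109, adjusted p = 1.47e-07) for KO2. On the spike-in scale it was not called for KO2 (0.38).

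Among cytosolic members, Mars, the methionine enzyme, lost more in both clones. In WT it stood at 158 and 158 CPM at 0 h, 107 and 109 at 3 h, 62.6 and 69.9 at 6 h and 63.2 and 65.3 at 9 h and ended at 52.0 and 52.5 in KO1 and 51.4 and 57.4 in KO2, below both WT libraries, although both clones had started above them. The difference of change was -0.40 (SE 0.0685, adjusted p = 9.84e-07) for KO1 and -0.45 (SE 0.0675, adjusted p = 4.42e-08) for KO2. Nars (-0.32 and -0.22) and Wars (-0.27 and -0.26) gave the same sign in both clones, all called. Nars and Wars had also been called higher than WT in both clones at 0 h. The difference of change includes that starting difference, and both clones share the WT libraries. Aars was called in neither clone to 9 h (0.01 and 0.06). Gars was called higher in both (0.17 and 0.18), calls lost without WT replicate 2 at 9 h (adjusted p = 0.185 and 0.168) and, for KO1, without KO1 replicate 2 at 9 h (adjusted p = 0.0783). With spike-in totals as the scale, the median of all genes moved to 0.91 for KO1 and -0.31 for KO2. On that scale 35 members were called higher and 0 lower in KO1, and 0 higher and 9 lower in KO2. Of all genes, it called 65.2% for KO1 and 16% for KO2. Mars, Nars and Wars then turned to 0.50, 0.59 and 0.63 in KO1. Spike-in RNA made up 6.92 to 15.9 CPM of the WT libraries and 240.2 to 843.8 CPM of the clones', and the sources used here give no reason for that gap.

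Lars2, the mitochondrial leucine enzyme at chr9:123195992-123291731, followed no shared course. In WT it stood at 142 and 137 CPM at 0 h, 131 and 136 at 3 h, 138 and 144 at 6 h and 171 and 174 at 9 h, highest at 9 h (0.30 against 0 h, called). In KO1 it stood at 109 and 109 CPM at 0 h, 361 and 372 at 3 h, 88.6 and 82.6 at 6 h and 115 and 115 at 9 h, with the 3 h libraries far above all others of that line. In KO2 it stood at 377 and 375 CPM at 0 h, 121 and 126 at 3 h, 101 and 95.4 at 6 h and 188 and 175 at 9 h, with the 0 h libraries far above the rest. Libraries of the same group lay close together each time. Against WT at 0 h it was -0.36 (SE 0.0396, adjusted p = 5.20e-13) in KO1 and 1.43 (SE 0.0334, adjusted p = 8.47e-63) in KO2, and KO2 against KO1 gave 1.79 (SE 0.0352, adjusted p = 1.69e-69). The difference of change to 3 h was 1.82 (SE 0.0525, adjusted p = 3.83e-53) for KO1 and -1.54 (SE 0.0521, adjusted p = 5.57e-47) for KO2, and to 9 h -0.22 (SE 0.0545, adjusted p = 6.97e-04) and -1.36 (SE 0.0483, adjusted p = 3.49e-45).

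Another gene, chosen after its values were seen, peaked in the same groups of the clones as Lars2. The locus ENSMUSG00000119584 at chr17:40157244-40159092 (GRCm39), looked at here as an rRNA-like locus, has no entry in the name table used here. It stood at 7227 and 7232 CPM in KO1 at 3 h and 11093 and 10862 in KO2 at 0 h, the same groups in which Lars2 peaked, and at 2902 and 2858 in WT and 1457 and 1470.2 in KO1 at 0 h. Across the means of the 12 groups its log2 CPM went with that of Lars2 at Pearson's r = 0.955 and Spearman's rho = 0.881, a description of groups that share libraries and scale. Their courses were not alike at every step: from 3 to 6 h in KO2 the locus went from a mean of 1561 to 1820.2 CPM and Lars2 from 124 to 98.4, and from 0 to 3 h in WT the locus went from 2880.4 to 1446 and Lars2 from 139 to 133. The next closest member to the locus was Pars2 at r = 0.438. The mitochondrial rRNA gene mt-Rnr2, set beside Lars2 in the same way, gave r = -0.107 and rho = 0.035. No exon of Lars2 overlaps another gene of the annotation, and whether its counts hold reads of this locus was not tested.

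**Figure D5:**
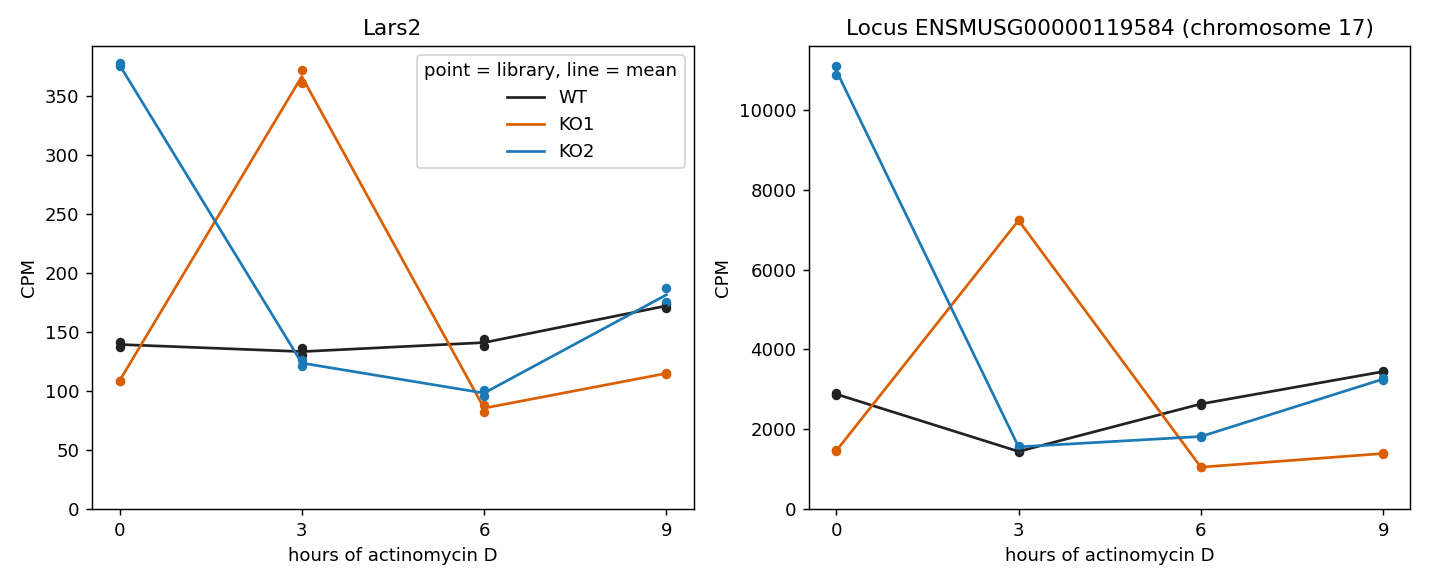
CPM of Lars2 (left) and of the locus ENSMUSG00000119584 on chromosome 17 (right) against hours of actinomycin D, 1 point for each library and lines through the means, WT in black, KO1 in orange and KO2 in blue. Both peak in KO1 at 3 h and in KO2 at 0 h, Lars2 at means of 366 and 376 CPM.

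Some members share exon bases with other genes, and reads from these could not be assigned by strand. Iars2, for isoleucine in mitochondria, shares 24.2% of its exon bases, chiefly with Rab3gap2. Aars shares bases with Exosc6 on the same strand, for which every library has a count of 0. Mars shares 68 bases with Ddit3, and Kars has an annotated pseudogene. Fars2 shares 10.7% of its exon bases with Lyrm4 and Nrn1. The values of these members are uncertain to that extent.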

How the data were processed

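Polyadenylated RNA from 24 libraries of 32D cells (3 lines, 4 times, 2 libraries each) was analysed. The authors deposited raw read counts per gene for each library, made with featureCounts 1.6.3 in paired mode and without strand from an Ensembl 105 annotation of GRCm39, per the file headers. STAR and DESeq2 are also named, without versions, in the submitters' processing notes, and the kit is directional per the labels. Libraries held 15361601 to 17338939 counts on genes, spike-ins apart.

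Gene names came from a table of GENCODE identifiers and symbols, and 52081 of 55414 identifiers had one. Promoter sequences came from RefSeq (GRCm38.p6), and those on chromosome 18 are not used here. Coordinates of genes are those of the deposited files. One model with a coefficient for each of 12 groups was fitted with edgeR 4.0.16 (R 4.3.3; filterByExpr with a minimum count of 10, TMM scaling, quasi-likelihood test, two-sided, Benjamini-Hochberg over 16167 genes) and tested on simulated data. All 37 members were tested. Genes were called at an adjusted p under 0.05, and a stricter rule added a fold of at least 1.5. Members described in every library were the 3 called members each way with the largest difference for each pair of lines at 0 h, the 4 each way for WT at 9 h, the 2 each way for each clone's change to 9 h against that of WT, and Wars, Nars, Aars, Gars and Lars2. From each list of other genes, up to 2 called genes each way were named. Other members named by value were chosen after their values were seen. One member counted in the lists is not reported here by itself. The members and lists were chosen with earlier results of these data known.

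Replicate numbers were not taken as pairing the samples. Over 66 pairs of groups the correlation of the deviations ranged from -0.0233 to 0.153, and the 4 above 0.1, at 0.106 to 0.153, were all between times of KO2, among its 6 pairs of times. No 2 libraries were the same, with a chi-square per degree of freedom from 1.43 to 2.31 within groups. Alternatives were DESeq2 1.42.0, other scaling factors, library totals, spike-in totals, no filter, only the groups compared, a replicate block and leaving out each library. In a further one the 2 libraries of each group were summed and the lines compared over all times.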

Additional observations from a re-analysis of the deposited data

Results flagged for a closer look

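Several members changed over time differently in a clone than in WT, by an edgeR test of the difference itself, and each is given as the clone's log2 change less that of WT. From 0 to 9 h the difference for Aars2 was 0.57 in KO1 and 0.69 in KO2. Over the same hours Ears2 gave -1.04 in KO1 and -0.90 in KO2, Mars gave -0.40 in KO1, and Lars2 gave -1.36 in KO2. From 0 to 3 h Lars2 gave 1.82 in KO1 and -1.54 in KO2, the opposite sign in the 2 clones, and Fars2 gave -0.72 in KO1 (edgeR adjusted p = 0.0205) and -0.74 in KO2 (edgeR adjusted p = 0.0214). Fars2 stood at 7.66 and 6.22 CPM in WT at 3 h, 3.69 and 3.72 in KO1 and 2.40 and 4.14 in KO2. The spike-in RNA, used in no comparison above but as a scale, stood apart, since it lay at 240.2 CPM in the lowest library of the clones and at 15.9 CPM in the highest of WT.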

How the results depend on the processing

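Total counts of called members, though not their split into higher and lower, stayed within 1.5 times of those given for DESeq2, other scaling factors, library totals, no filter, only the groups compared and the replicate block, and when any single library was left out. With library totals the split of the difference of change turned from mostly lower to mostly higher, at 12 higher and 7 lower in KO1 to 3 h, 9 higher and 7 to 9 h, 9 higher and 6 in KO2 to 3 h and 9 higher and 7 to 9 h, and for KO2 against KO1 it was 5 higher and 8. Leaving out a library gave 15 to 18 called members for KO1 against WT at 0 h, 13 to 17 for KO2 against WT, 8 to 9 for KO2 against KO1, 34 to 35 and 35 to 36 for WT at 3 and 9 h, 32 to 33 and 34 to 35 for KO1, 32 to 33 and 35 to 36 for KO2, 15 to 17 and 14 to 17 for the difference of change of KO1 to 3 and 9 h, and 13 to 15 and 10 to 14 for that of KO2. Where a group was left with 1 library, it was assumed to vary like the others. With replicate number as a block, KO2 against KO1 gave 12 called members and no named result changed its call. Summing the 2 libraries of each group and comparing the lines over the 4 times left fewer called members. There were 7 for KO1 against WT, 5 for KO2 against WT and 1 for KO2 against KO1, where 18.3%, 21.5% and 2.71% of all genes were called. The sign turned for Ears2 (-0.21) and Lars2 (0.0355) in KO1 and for Ears2 (-0.14), Aars2 (0.22), Rars (0.0337) and Wars (-0.0130) in KO2. This setting asks about all 4 times, not 0 h. Spike-in totals gave 12 called members for the change of KO1 to 3 h, 35 to 9 h, 2 for that of KO2 to 3 h and 9 to 9 h, and turned Wars (-0.45) in WT at 3 h, Lars2 (-0.52) in WT at 9 h, Wars (0.20), Nars (0.20) and Aars (0.14) in the change of KO1 to 3 h, Mars (0.50), Wars (0.63), Nars (0.59) and Lars2 (0.68) in that to 9 h, and Gars (-0.12) in that of KO2 to 9 h. Of all genes, spike-in totals called 20.5% for the change of KO1 to 3 h and 65.2% to 9 h. For that of KO2 they called 5.17% to 3 h and 16% to 9 h. Library totals turned Wars in WT at 3 h (-0.0499). Of 1079 values of named members under an alternative, 996 kept their side of the threshold and, where called, their direction. Spike-in counts of 120 to 257 in WT limit that scale, and Fars2 at 9 h is limited by counts as low as 7. The cause of these shifts was not tested.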
